A study of Mus musculus with 2 samples.

Results

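The miR-26 family of the mouse consists of 3 miRNA genes, Mir26a-1, Mir26a-2 and Mir26b, and its levels are described here in the intestine of embryos of the strain B6NCrl at embryonic day 16.5. The members were found by matching the Ensembl identifiers of the deposited tables, without their version, to the GENCODE mouse annotation, which gave 3 of 1973 gene rows. All 3 had a row in both libraries, and all 3 passed the minimum of 20 counts summed over the libraries that was set for the comparison between them. The study sequenced small RNA under 30 nucleotides from pooled male and female embryos as 2 libraries, which the labels call biological replicates 2 and 1 of a single group, each with its own tissue sample. The pool of replicate 2 held 41 embryos, and the labels do not say how many were in the pool of replicate 1. The labels name no treatment and give the embryos as healthy, so the comparisons are among genes and between the libraries, not between conditions.

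MicroRNAs are cut from hairpin transcripts, first to a hairpin and then to a duplex of a 5p and a 3p arm, one of which usually guides repression of messenger RNAs through its seed, bases 2 to 8. The miR-26 genes lie in introns of genes for small phosphatases of the C-terminal domain of RNA polymerase II, which act with the repressor REST to keep neuronal genes silent outside the nervous system. In zebrafish, miR-26b represses the host transcript ctdsp2 during neurogenesis, and in mammals the family is known as a repressor of Ezh2, a histone methyltransferase, and as a brake on the cell cycle.

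The mature 5p miRNAs show what the gene counts can and cannot separate. The seed is in capitals.
mmu-miR-26a-5p, from Mir26a-1 and Mir26a-2: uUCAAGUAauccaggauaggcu
mmu-miR-26b-5p, from Mir26b: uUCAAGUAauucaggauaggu
mmu-miR-26a-1-3p, from Mir26a-1: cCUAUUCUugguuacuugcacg
mmu-miR-26a-2-3p, from Mir26a-2: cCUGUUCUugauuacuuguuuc
mmu-miR-26b-3p, from Mir26b: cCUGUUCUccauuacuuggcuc
The seed UCAAGUA of the 5p arms was carried by 3 genes of the RefSeq miRNA table (GRCm38.p6), and these were the 3 members. Mir26a-1 and Mir26a-2 encode the same 5p miRNA base for base. Over the 21 bases compared, the 5p miRNA of Mir26b differed from it at 2 places, C11U and C21U (the base of miR-26a, the position from its 5′ end, the base of miR-26b), both outside the seed. The 3p arms set the 2 copies apart: mmu-miR-26a-1-3p and mmu-miR-26a-2-3p differed at 6 of 22 bases, one of which, A4G, lies in the seed. The 3p arm of Mir26a-2 shares its seed CUGUUCU with that of Mir26b, and also with the 3p arms of Mir6932 and Mir7039, 4 genes in all, while the 3p seed of Mir26a-1 was found in that gene alone in the table.

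The hairpins show how far the identity of the 2 copies extends. In the hairpins of Mir26a-1 and Mir26a-2 the capitals mark the run of 25 bases that both share, and in that of Mir26b they mark the mature 5p arm.
Mir26a-1, chr9:119031796-119031885, plus strand: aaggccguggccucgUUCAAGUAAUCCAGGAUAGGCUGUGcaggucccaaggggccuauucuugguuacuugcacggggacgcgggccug
Mir26a-2, chr10:126995530-126995613, plus strand: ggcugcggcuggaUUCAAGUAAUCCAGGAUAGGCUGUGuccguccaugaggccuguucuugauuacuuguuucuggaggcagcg
Mir26b, chr1:74394310-74394394, plus strand: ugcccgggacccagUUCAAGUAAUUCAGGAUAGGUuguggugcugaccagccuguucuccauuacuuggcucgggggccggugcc
The shared run begins at the first base of the 5p arm and ends past its last. A read from the first base of mmu-miR-26a-5p had to be 26 bases long to be found in 1 of the 1005 RefSeq hairpins only, 4 bases longer than the 22 bases of the mature miRNA. For mmu-miR-26b-5p a read of 11 bases was enough. From the first base of the 3p arms the shortest such reads had 8 bases for Mir26a-1, 11 for Mir26a-2 and 12 for Mir26b. Over the whole hairpin, 65 of 69 windows of 22 bases were unique to Mir26a-1, 59 of 63 to Mir26a-2 and 64 of 64 to Mir26b. The shared windows of both copies were the 4 that lie inside the shared run.

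**Figure D1:**
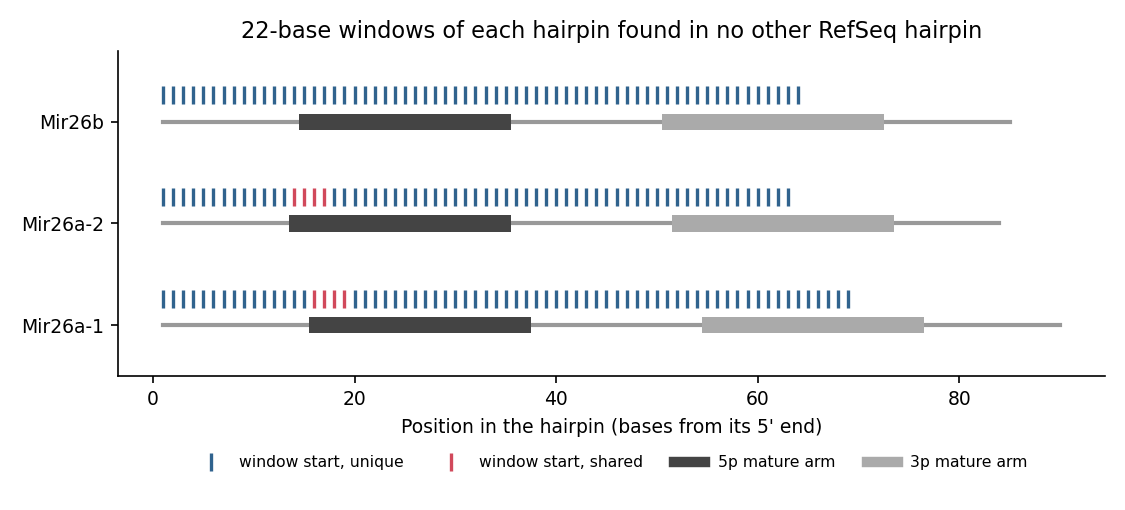
Start of every 22-base window along the 3 hairpins (horizontal axis, bases from the 5′ end), in blue where the window was in no other RefSeq hairpin and in red where it was, above bars for the mature 5p and 3p arms. The 4 red starts in each copy of miR-26a lie at the beginning of the 5p arm, and all 64 windows of Mir26b are blue.

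Each hairpin lay in an intron of a Ctdsp gene, on the strand of its host. Mir26a-1 lay in intron 5 of the transcript Ctdspl-201, which is 3283 bases long (chromosome 9, 119030253 to 119033535), 1543 bases from the exon before it and 1650 bases from the exon after it. Mir26a-2 lay in intron 5 of Ctdsp2-202 (chromosome 10, 126993909 to 126995854, 1946 bases), 241 bases before the next exon. Mir26b lay in intron 4 of Ctdsp1-201, the shortest of the 3 introns at 564 bases (chromosome 1, 74394076 to 74394639), 234 bases from the exon before it and 245 bases from the exon after it. For Mir26a-2 the annotation also holds a pair of shorter Ctdsp2 transcripts, Ctdsp2-201 and Ctdsp2-203, whose first exon starts at position 126995613, the last base of the hairpin. In folds predicted with RNAfold the minimum free energy was -49.4 kcal/mol for Mir26a-1, -44.5 kcal/mol for Mir26a-2 and -43.5 kcal/mol for Mir26b, against a median of -32 kcal/mol over the 1005 hairpins, which differ in length. In these folds 20 of 22, 19 of 22 and 18 of 21 bases of the 5p arm were paired in Mir26a-1, Mir26a-2 and Mir26b.

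Of 10876035 reads in replicate 2, 5680764 (52.2%) fell in a miRNA gene in its own orientation, and of 8747512 reads in replicate 1, 4261976 (48.7%) did. Reads that mapped to more than 1 locus enter no gene count and made up 25.7% of reads in replicate 2 and 26.2% in replicate 1. Levels are given in CPM, the same-strand counts of a gene scaled to their total in the library, with exact Clopper-Pearson 95% intervals that cover counting error only, since copies of a molecule made by PCR could not be told apart. The tissue label was checked against marker miRNAs: all 10 epithelial genes were detected in both libraries and held 12.3% of the counts in replicate 2 and 10.8% in replicate 1. The 3 smooth muscle and mesenchyme genes held 17.7% and 18.5%, and Mir126a of endothelium 3.36% and 3.08%, in replicates 2 and 1. Blood, liver, striated muscle and pancreas lists held at most 0.131% in either library. Of 7 neural genes listed, 3 were matched to a row by symbol and together held 0.167% and 0.143%. Nearly all of this was Mir137, with 9449 of 9472 counts in replicate 2 and 6057 of 6085 in replicate 1. Mir124a-1 had a row, at a mean level of 0.176 CPM, but was outside these 3. A symbol without a match therefore does not show that the gene lacked a row. In whole tissue, fewer cells of a type and less miRNA per cell cannot be told apart.

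Mir26b was among the most abundant miRNA genes of the fetal intestine, while both rows of miR-26a held few counts. Mir26b had 196741 counts or 34633 CPM in replicate 2 (interval 34483 to 34784) and 132296 counts or 31041 CPM in replicate 1 (30877 to 31206). It ranked 6 of 1973 rows in each library, at a mean of 32837 ± 2540 CPM (SD, n = 2) or 3.28% ± 0.254 of the counts. Mir26a-2 had 199 counts or 35.0 CPM in replicate 2 (30.3 to 40.3) and 177 counts or 41.5 CPM in replicate 1 (35.6 to 48.1), a mean of 38.3 ± 4.60 CPM at rank 235. Mir26a-1 had 62 counts or 10.9 CPM in replicate 2 (8.37 to 14.0) and 45 counts or 10.6 CPM in replicate 1 (7.70 to 14.1), a mean of 10.7 ± 0.251 CPM at rank 286. The order Mir26b, Mir26a-2, Mir26a-1 was the same in both libraries, and the libraries' ranges of the 3 genes did not overlap. Mir26b lay far above the median of 129 CPM over the 364 genes with at least 20 counts summed, and both rows of miR-26a lay below it. All 3 genes had 0 counts on the opposite strand in both libraries. This is below the detection limit of 3 counts set here, 0.528 CPM in replicate 2 and 0.704 CPM in replicate 1.

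**Figure D2:**
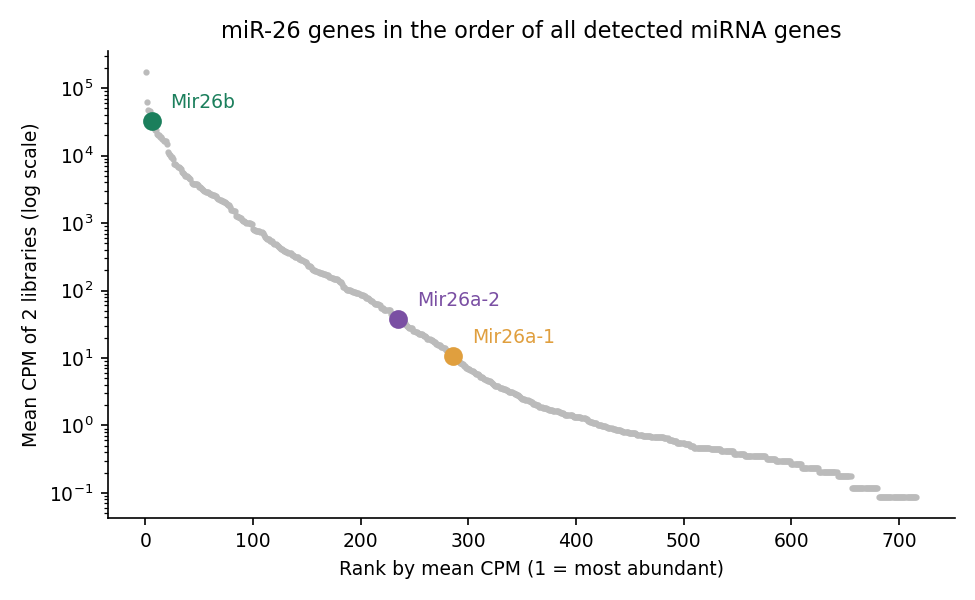
Mean CPM of the 2 libraries (vertical axis, log scale) against rank for every gene with at least 1 count, with the miR-26 genes in colour. Mir26b stands at rank 6, Mir26a-2 at 235 and Mir26a-1 at 286.

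Within the family nearly all counts were those of Mir26b. It held 99.868% of the family's counts in replicate 2 (interval 99.850% to 99.883%) and 99.833% in replicate 1 (99.809% to 99.854%). The family as a whole came to 34679 CPM in replicate 2 and 31093 CPM in replicate 1, and the pair of miR-26a rows together to 45.9 CPM in replicate 2 and 52.1 in replicate 1. Mir26b had 754 times the counts of the pair in replicate 2 (interval 668 to 854) and 596 times in replicate 1 (522 to 683). Against the single rows it stood 3057 ± 165 times above Mir26a-1 and 868 ± 171 times above Mir26a-2 (SD, n = 2).

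The copies differed from each other too, although they encode the same 5p miRNA. Mir26a-2 had 3.21 times the counts of Mir26a-1 in replicate 2 (interval 2.40 to 4.34) and 3.93 times in replicate 1 (2.82 to 5.58), and neither interval reached equality. A row sums both arms, the loop and any flanking bases, so the counts do not tell how many reads of a copy came from the 3p arm, which differs between the copies, or from long 5p reads.

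These ratios are of reads placed at a single locus and not of molecules. The mature miR-26a read could not be assigned to either copy, and reads of several loci, 2796194 in replicate 2 and 2290968 in replicate 1, were not split by sequence in the tables. They numbered 14.2 times the counts of the family in replicate 2 and 17.3 times in replicate 1, so the level of miR-26a itself is not given by these tables, and its order relative to miR-26b cannot be told. The number of mismatches allowed in the alignment is not given in the sources used here. With 2 differences between the 5p arms, that number bears on whether a read of miR-26b stayed unique.

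The genes nearest to each member in level were taken as those with the smallest value of the larger of the 2 absolute differences in log2(CPM + 1), one per library. For Mir26b these were the endothelial Mir126a (0.04), Mir335 of the imprinted gene Mest (0.16) and the epithelial Mir429 (0.34). In the order of mean CPM, Mir335 stood directly above at 35281 ± 709 CPM and did not overlap with Mir26b, while Mir126a directly below at 32188 ± 1983 CPM did. For Mir26a-2 they were Mir18b (0.04), Mir325 (0.04) and Mir3072 (0.05). Its neighbours in the order, Mir6240 at 38.4 ± 25.96 CPM and Mir18b at 38.1 ± 5.55 CPM, both overlapped with it. For Mir26a-1 they were Mir450-2 (0.25), Mir669e (0.27) and Mir19b-1 (0.31). Its neighbours, Mir669e at 11.6 ± 1.78 CPM above and Mir190b at 10.7 ± 5.52 CPM below, overlapped with it as well.

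The miR-103 and miR-107 genes, in introns of the pantothenate kinase (Pank) genes, have the same layout, a pair of copies with an identical mature miRNA and 1 relative, and the relative again held most counts. Mir107 had 1034 CPM in replicate 2 and 1146 CPM in replicate 1, against 48.8 and 60.8 CPM for Mir103-2 and 4.05 and 2.82 CPM for Mir103-1. Mir107 exceeded its pair of copies 19.6-fold in replicate 2 and 18.03-fold in replicate 1, a smaller factor than the 754 and 596 of Mir26b. The mature mmu-miR-103-3p and mmu-miR-107-3p differ by 1 base, G22C. A mmu-miR-107-3p read needed 22 bases to be found in 1 RefSeq hairpin only, against 11 bases for mmu-miR-26b-5p. The genome was not searched, so these lengths do not tell which reads mapped to a single locus. Their part in the factors was not tested. The copies summed to 49.0 ± 4.34 CPM for miR-26a and 58.2 ± 7.62 CPM for miR-103 (SD, n = 2), and the libraries' ranges, 45.9 to 52.1 CPM and 52.8 to 63.6 CPM, lay close without overlapping. In the miR-29 family, whose members repress collagens, Mir29a (99.3 ± 3.42 CPM) and Mir29c (90.9 ± 11.4 CPM) stood above the copies Mir29b-2 (6 and 4 counts in replicates 2 and 1) and Mir29b-1 (4 and 3 counts). Reads of mmu-miR-103-3p and mmu-miR-29b-3p needed 25 and 24 bases to be in 1 RefSeq hairpin only, past the 23 bases of each mature miRNA. The levels of miR-103 and miR-29b themselves are therefore not given by these rows, as for miR-26a.

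**Figure D3:**
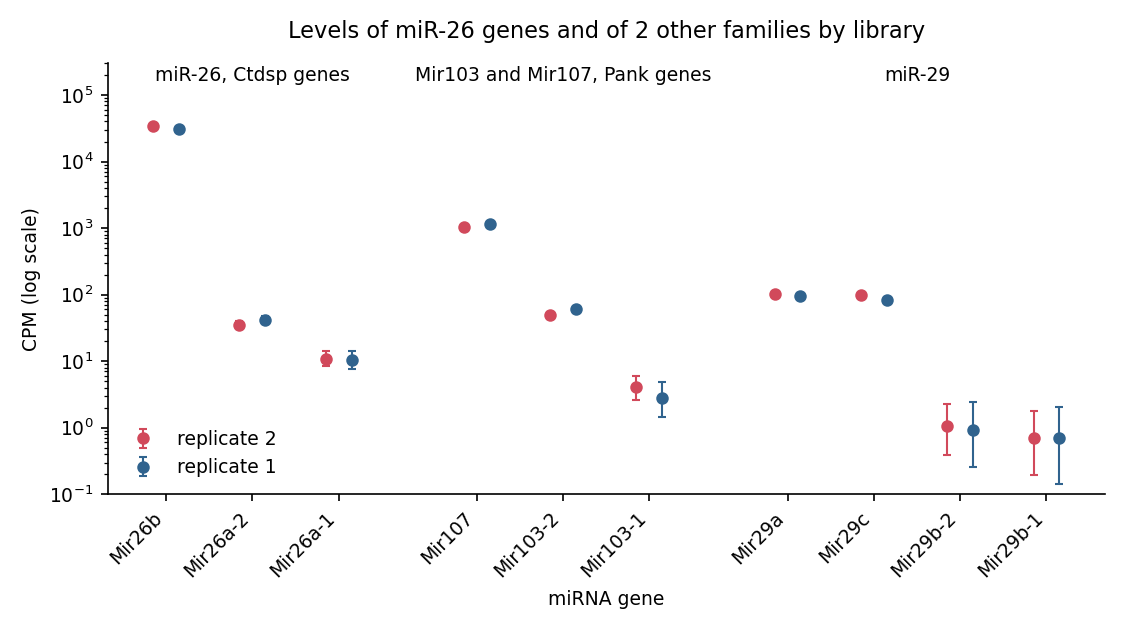
CPM (log scale) in replicate 2 (red) and replicate 1 (blue) of the miR-26, Pank and miR-29 genes, with exact Clopper-Pearson 95% intervals as bars. In each family the genes whose mature miRNA is encoded once stand above the pair with identical copies, and the step is largest for Mir26b, at 34633 and 31041 CPM. Reads that map to more than 1 locus, such as mature reads of the identical copies, are in none of these counts.

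A low level was not shared by all genes with identical copies. A mature sequence was in the RefSeq table for 916 of the 1973 rows, and Mir143, the most abundant gene, was not among them. Of the 916, 65 share a mature miRNA with exactly 1 other gene, with a median of 14.5 CPM and 15 genes at 0 counts. The 829 genes whose mature miRNAs occur at 1 gene had a median of 0.440 CPM and 269 genes at 0 counts. A further 22 share one with 2 or more other genes. At least 1000 CPM was reached by 7.69% of the 65 and by 10.3% of the 829. Among the 65, Mir26a-2 ranked 25 and Mir26a-1 ranked 38, and the highest was Mir194-2 at 3988 CPM. For 51 of them the shortest read from the 5′ end of the shared miRNA that was found in 1 hairpin only could be computed from the table. The 12 genes for which 23 or fewer bases were enough had a median of 129 CPM, and the 11 with 24 bases 93.8 CPM. The 13 with 25 bases had a median of 14.1 CPM and the 13 with 27 or more bases 12.5 CPM. In that order levels ran from 5.51 to 3988, 0.704 to 1076, 0.235 to 658 and 0 to 773 CPM, so the classes overlap. The length of the mature miRNA itself, which differs between genes, was not taken into account. Where a gene shared more than 1 miRNA, the longest such read was used. Mirlet7a-1 was placed by its 3p arm. The miR-26a copies were the 2 genes at 26 bases. The class of 27 or more bases included Mir129-2 at 63 bases, whose level of 12.5 CPM was its median, and Mir219a-2 at 64. Their partners Mir129-1 and Mir219a-1 needed 25 and 22 bases. The search covered both strands of all other hairpins, so the partner did not always set the length. Mir181a-1, which needs 28 bases, had 773 CPM, the highest level among the genes that need 27 or more, against 3988 CPM for Mir194-2 among those that need 23 or fewer. Copies of 1 pair often share this length and much of their sequence, so the genes are not independent, and the values are a description.

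**Figure D4:**
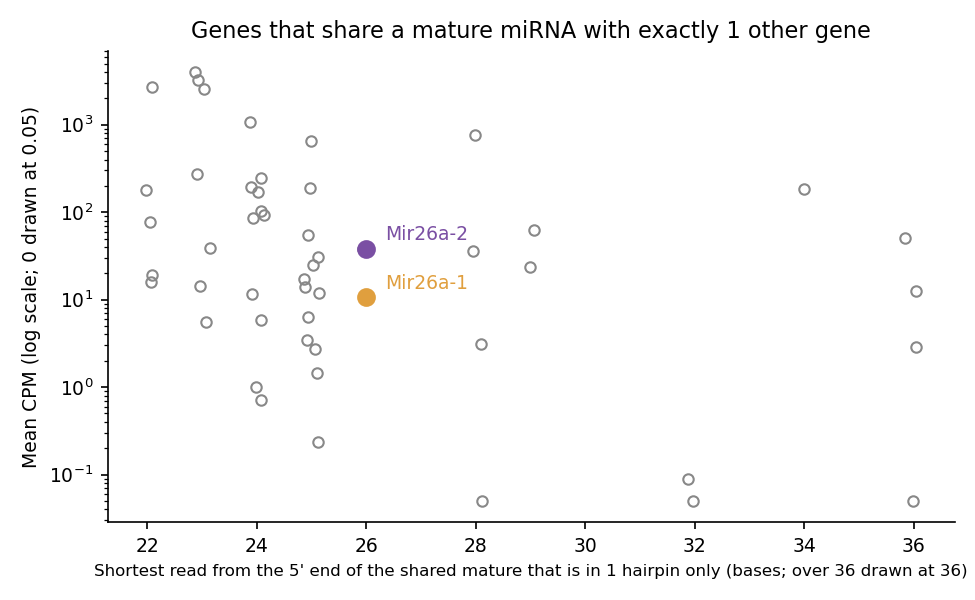
Mean CPM (log scale, 0 drawn at 0.05) of 51 genes that share a mature miRNA with exactly 1 other gene, against the shortest read from the 5′ end of that miRNA found in 1 RefSeq hairpin only (bases, small random shifts sideways for the grey circles, values over 36 drawn at 36). Mir26a-2 and Mir26a-1, in colour, sit at 26 bases with 38.3 and 10.7 CPM, and the genes above 1000 CPM sit at 24 bases or fewer.

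Between the libraries Mir26b was higher in replicate 2, and the miR-26a rows did not pass the test. After TMM scaling, which rescales the library totals by a trimmed mean of the gene ratios, Mir26b stood at 36223 CPM in replicate 2, against 29678 CPM in replicate 1, a log2 ratio of 0.29 (exact interval 0.28 to 0.30). It passed the exact two-sided binomial test with Benjamini-Hochberg adjustment over 364 genes, at an adjusted p below 1e-300. Mir26a-1 stood at 11.4 and 10.1 CPM in replicates 2 and 1, a log2 ratio of 0.17 (-0.40 to 0.76), with an adjusted p of 0.652 in the exact test. Mir26a-2 stood at 36.6 and 39.7 CPM, a log2 ratio of -0.12 (-0.42 to 0.18), with an adjusted p of 0.538 in the exact test. The intervals of the rows of miR-26a are wide at these counts, and the ratio of Mir26b lies inside that of Mir26a-1 and outside that of Mir26a-2.

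The test sets 1 library against another and covers counting error only, and at the depth of Mir26b small ratios pass. It called 189 of 364 genes (51.9%), 89 higher in replicate 2 (24.5%) and 100 higher in replicate 1 (27.5%), so that 1 call among 3 members is not more than the background. When libraries were scaled by their total counts, the test called 210 genes (57.7%), 46 (12.6%) higher in replicate 2 and 164 (45.1%) higher in replicate 1, since that scaling shifts every log2 ratio by -0.13. The ratio of Mir26b was then 0.16. Its distance of 0.31 above the median of all genes tested cannot differ between these scalings, since all ratios shift alike. The median over the 3 members was 0.17, against -0.02 over all 364 genes. That 0.17 is the ratio of Mir26a-1 itself, which did not pass the test, and Mir26a-2 had -0.12. Mir26b was not among the 40 genes (11%) past the test at a difference of at least 1.5-fold, of which 9 (2.47%) were higher in replicate 2 and 31 (8.52%) in replicate 1. On the same TMM scale the 10 epithelial markers summed had a log2 ratio of 0.32, with 9 of the 10 higher in replicate 2, and 0.19 without Mir215, a gene left out after its values were seen. Under total counts these sums had 0.19 and 0.06, with 7 of the 10 and 6 of the 9 genes higher in replicate 2. Mir126a of endothelium had a ratio of 0.26. The other lists, summed on the TMM scale, had 0.41 for skeletal and cardiac muscle and 0.35 for the 3 matched neural genes, mostly Mir137 (0.36). The remaining lists had -0.09 for blood, -1.02 for liver and 1.66 for pancreas, the last at 27 and 7 counts in replicates 2 and 1. The 3 smooth muscle and mesenchyme markers summed had 0.07, a sum made up mostly of Mir143 (0.08). Only 1 of the 3 was higher in replicate 2, and Mir145a and Mir214 had -0.14 and -0.12. Under total counts the sum turned to -0.06, with 0 of the 3 higher in replicate 2. The part of these markers in the ratio of Mir26b was not tested.

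**Figure D5:**
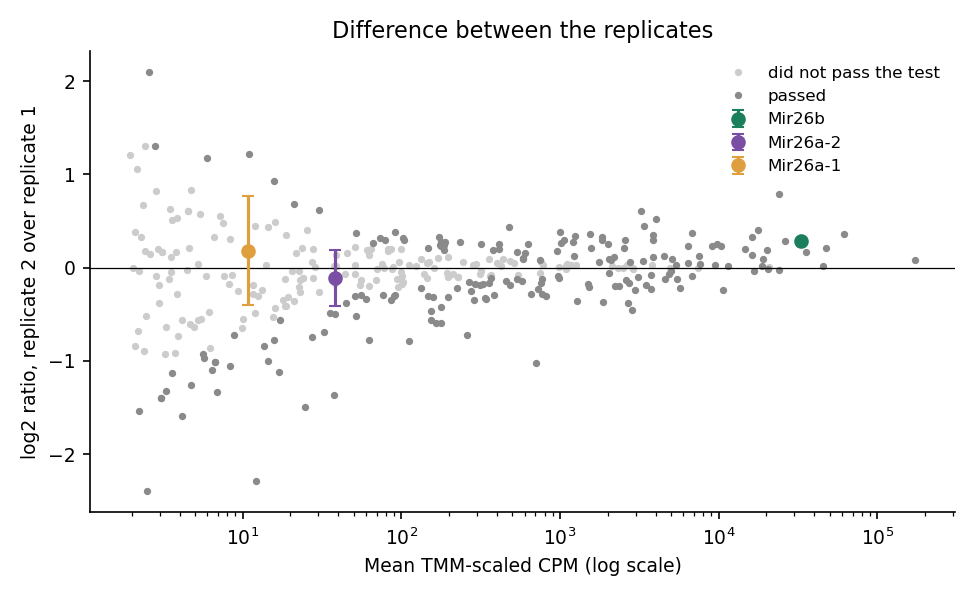
Log2 ratio of replicate 2 over replicate 1 against mean TMM-scaled CPM (log scale) for 364 genes, dark grey where the exact test was passed, with the miR-26 genes in colour and exact 95% intervals as bars. Mir26b lies at 0.29 with an interval smaller than its point, and the intervals of Mir26a-2 and Mir26a-1 cross 0.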

How the data were processed

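For each of 2 libraries the authors deposited whole-number counts of reads by miRNA gene, unnormalized, made on mm10 with annotation M4, per the file headers in the readme. The aligner, the counter and trimming were not given in the sources used here. The columns carry no names: the second equalled the third plus the fourth in every gene row, and the third, which held over 96.2% of it, was taken as the strand of the gene. Totals leave out rows without a gene: 17.2% and 19.5% of reads unmapped, 25.7% and 26.2% at several loci, 2.88% and 3.69% outside miRNA genes, in replicates 2 and 1.

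CPM used the total over 1973 gene rows. GENCODE M21, of the same assembly, gave symbols and exons (1894 rows matched, and the other 79 held 2 counts), and RefSeq (GRCm38.p6) gave sequences. All 3 members matched. Sharing was searched among RefSeq hairpins on both strands. No genome was used. With 1 group there is no contrast for a quasi-likelihood fit. The libraries were compared over genes reaching 20 counts summed by an exact conditional binomial test on TMM library sizes (edgeR 4.0.16), with log2 ratios at a prior of 0.5 counts, at an adjusted p of 0.05. The test was tested on simulated counts that held counting error only. This cannot show how it behaves where libraries vary beyond that error. Other computation used R 4.3.3, DESeq2 1.42.0, Python 3.11.15, scipy 1.17.1 and RNAfold 2.7.2. Named genes are the members, their 3 nearest in level, their neighbours in rank, and the miR-103, miR-107 and miR-29 genes. The highest gene of a class was named after its value was seen. The members and lists were chosen with earlier results of these data known.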

Additional observations from a re-analysis of the deposited data

How the results depend on the processing

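The ratio of Mir26b between the libraries kept its sign and passed the test under total counts, DESeq2 size factors, other count minimums and unstranded counts, and the miR-26a rows passed in none of these. With total counts 46 genes were higher in replicate 2 and 164 in replicate 1, and with a 1.5-fold minimum 9 and 31. Levels scale with the total chosen. Without the most abundant gene in it, Mir26a-1 stood at 13.0 CPM, Mir26a-2 at 46.3, Mir26b at 39737 and the family at 39796. Scaled by all reads in the library, in place of gene counts, they stood at 5.42, 19.3, 16607 and 16631. With unstranded counts Mir26a-1 was at 10.3 CPM. Ratios within the family do not depend on the total. Without each replicate in turn, Mir26b was at 31041 to 34633 CPM and Mir26a-2 over Mir26a-1 at 3.21 to 3.93. These are the values of the single libraries, so they test no dependence. No paired analysis was possible because the libraries form a single group with 1 library per replicate number. At 45 to 199 counts a library, the counting intervals of the miR-26a rows are wide.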

Other observations

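Transcripts of the host genes were searched for the miR-26 seed, since the family is known to repress a host in zebrafish. The letters were TACTTGA, complementary to bases 2 to 8 of both 5p miRNAs, on the transcript strand, in the longest annotated 3′ untranslated region of each gene, which came from the transcripts Ctdspl-201, Ctdsp2-201 and Ctdsp1-201. Ctdsp2, host of Mir26a-2, held 1 match at base 1080 of 3489 (GRCm38.p6, chr10:126997546-126997575, plus strand), shown with the match in capitals: gttgtcccaagtgttgctctTACTTGAttt. Ctdsp2-202, which holds Mir26a-2 in an intron, has a region of 3483 bases with the match at the same base. The match was not followed by the further A of the 8-base form TACTTGAA. No match was found in the 3349 bases of Ctdspl or in the 1701 bases of Ctdsp1. Such a match was held by 9.67% of 21007 genes, and by 23.4% of the 2048 genes with a region of 80% to 125% of the length of that of Ctdsp2. The match is a description of the letters in that region. The host messenger RNAs were not measured here.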
